A study of Mus musculus with 12 samples.

Results

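Ep300, Crebbp, Kat2a, Kat2b, Kat5, Brd2 and Brd3 encode enzymes that place acetyl groups on histones and proteins that read them. The rows with these 7 symbols were taken from the 3 deposited tables of 23366 gene symbols each, all 7 were found in each table, and all 7 passed the filter on low values in each comparison. The cells were Beko cells, a mouse pre-T cell line, and RNA was sequenced from 12 ribosomal RNA-depleted total RNA libraries in 6 groups of 2. The DAPT group received the γ-secretase inhibitor DAPT at 10 µg/ml for 24 h, and its controls received DMSO for 24 h. The apicidin group received apicidin, an inhibitor of histone deacetylases, at 0.01 µg/ml for 24 h, with DMSO controls of its own. The shHdac3 group carried plasmids for a short hairpin RNA against Hdac3, named as one hairpin in the labels of both libraries, and its controls carried a scrambled hairpin; both were taken 96 h after puromycin. DAPT blocks the cleavage that frees the Notch intracellular domain and was used to find Notch target genes, and the other treatments were used to ask what HDAC3 does at those genes. The groups share 1 cell line, and the labels do not say whether the 2 libraries of a group are from different cultures, and p-values therefore reflect library-to-library spread that may be technical.

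Lysine acetylation of histone tails opens chromatin and is removed by histone deacetylases such as HDAC3. The paralogues CBP (Crebbp) and p300 (Ep300) are broad coactivators, and p300 is brought to Notch target genes by the Mastermind proteins that bind the Notch intracellular domain. GCN5 (Kat2a) and PCAF (Kat2b) are paralogues that serve as alternative catalytic subunits of the SAGA and ATAC coactivator complexes. TIP60 (Kat5) is the catalytic subunit of the NuA4 complex, which acts in transcription and in the repair of DNA breaks. BRD2 and BRD3 belong to the BET family, whose bromodomains bind acetylated lysines and help to bring the elongation kinase P-TEFb to genes.

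The promoter windows below belong to the paralogues Kat2a and Kat2b, which moved in opposite directions with DAPT, and to Brd2 and Brd3, which both rose with shHdac3. Each runs 5′ to 3′ from 250 bases before to 50 bases after an annotated start, from RefSeq on build GRCm38.p6. Kat2b has 2 such windows and Brd2 has 3, and the one with the start farthest upstream is shown. Capitals mark matches to the RBPJ core motif, TGGGAA on either strand.
Kat2a, chr11:100712418-100712717, minus strand: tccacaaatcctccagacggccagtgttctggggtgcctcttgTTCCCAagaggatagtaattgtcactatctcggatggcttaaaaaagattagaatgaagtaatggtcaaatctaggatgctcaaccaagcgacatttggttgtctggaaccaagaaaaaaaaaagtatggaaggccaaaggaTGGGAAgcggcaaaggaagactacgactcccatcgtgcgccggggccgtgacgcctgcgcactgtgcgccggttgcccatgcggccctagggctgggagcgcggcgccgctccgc
Kat2b, chr17:53566721-53567020, plus strand: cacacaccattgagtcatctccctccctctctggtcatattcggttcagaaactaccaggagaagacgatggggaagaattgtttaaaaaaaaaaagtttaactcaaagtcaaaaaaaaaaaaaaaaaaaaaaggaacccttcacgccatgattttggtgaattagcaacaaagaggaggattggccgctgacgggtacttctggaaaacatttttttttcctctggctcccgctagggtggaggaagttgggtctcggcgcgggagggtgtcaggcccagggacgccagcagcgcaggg
Brd2, chr17:34122558-34122857, minus strand: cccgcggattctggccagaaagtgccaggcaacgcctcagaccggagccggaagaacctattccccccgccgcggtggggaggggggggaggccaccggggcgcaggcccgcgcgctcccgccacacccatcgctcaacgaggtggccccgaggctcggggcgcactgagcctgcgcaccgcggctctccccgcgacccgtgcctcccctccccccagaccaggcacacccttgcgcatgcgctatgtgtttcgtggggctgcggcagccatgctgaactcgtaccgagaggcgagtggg
Brd3, chr2:27475349-27475648, minus strand: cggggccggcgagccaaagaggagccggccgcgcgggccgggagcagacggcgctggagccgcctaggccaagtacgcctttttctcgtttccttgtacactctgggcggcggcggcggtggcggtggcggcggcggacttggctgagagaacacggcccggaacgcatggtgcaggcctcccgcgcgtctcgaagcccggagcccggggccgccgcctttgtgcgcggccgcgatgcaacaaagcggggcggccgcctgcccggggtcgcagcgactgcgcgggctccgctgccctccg
The Kat2a window held 2 RBPJ core matches, and the windows of the other 6 genes held 0. Of 32851 windows of the same length in the table, 25.6% held at least 1 such match. The E-box CACGTG, which reads the same on both strands, had 1 match, in the upstream window of Kat5, against 7.15% of all windows. The Kat2b window had a GC content of 47%, below the 72.3% of Brd2 and the 75% of Brd3, while the median over all windows was 52.7%. These matches describe letters only, and no binding data were used.

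Hdac3 stood at 774 and 819 normalized reads in the shHdac3 libraries and at 2012 and 1930 in the scrambled libraries (log2 fold change -1.31 ± 0.05, SE), in the direction of the labels. Gene reads summed to between 21766984 and 42815304 per library, and each of the 7 genes had at least 896 reads in each library. Pre-T cell markers were present in all libraries, with Rag1, a recombinase gene, at 20312 or more and Lck, the proximal T cell receptor kinase gene, at 10337 or more. The summed level of 8 pre-T cell markers was 113165 to 115035 with DAPT against 140755 to 144182 with DMSO, 63534.5 to 63709 with apicidin against 90321 to 90523 with DMSO, and 72326 to 73871 with shHdac3 against 96409 to 96696 in scrambled libraries. Rag1 reached 63296 and Cd3e at most 2529, so this sum is weighted to the highest genes and does not show that each marker fell. Among the markers of other lineages, the erythroid genes were listed at 0, as were the mast cell genes Fcer1a, Cma1 and Mcpt4 and the B cell genes Ms4a1 and Pax5. The myeloid genes Lyz2, Csf1r and Cd14 did not pass 9.19 normalized reads in any library. Kit, which early T cell progenitors also express, made up the mast cell sum of 2533 to 2598 with DAPT against 1183 to 1206 with DMSO and of 2836 to 2845 with shHdac3 against 1426 to 1474 in scrambled libraries. With apicidin it was 1469 to 1579.8 against 1136 to 1283 with DMSO. The myeloid list (4 markers) came almost wholly from Itgam and summed to 461 to 530.2 with DAPT against 240.1 to 246 with DMSO, and to 750.3 to 795 with apicidin against 507 to 533 with DMSO. It was 367 to 396 with shHdac3 against 367 to 391 in scrambled libraries. Cd4, Cd8a and Cd8b1 were listed as mature T cell markers, but each was at 832 or more in every library of this pre-T line. Their sum can therefore not be read as mature cells. It was 16634 to 16649 with DAPT against 12011 to 12092 with DMSO. With apicidin the sum was 8685 to 8732 against 9979 to 10141 with DMSO, and with shHdac3 4691 to 4693 against 7748 to 7834 in scrambled libraries. The fibroblast list (3 markers) stayed at or below 82.3 in every library, at 80.2 to 82.3 with DAPT against 31.3 to 36.9 with DMSO. The part of these shifts in the results below was not tested, and in bulk RNA fewer cells of a type and less RNA per cell cannot be told apart.

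Brd2 was the most abundant of the 7 transcripts by far. In RPKM, gene reads scaled to library size and to the length of the longest coding transcript, the 6 control libraries spanned 49.998 to 67.8 for Brd2, with a median of 59.0. Kat2a followed with a median of 21.9 (20.6 to 25.9), then Kat5 with 21.4 (19.6 to 23.2) and Brd3 with 18.3 (16.7 to 19.4). Kat2a and Kat5 overlapped across the control libraries and exchanged places, Kat2a being the higher in the DMSO libraries of the DAPT experiment and the scrambled libraries and Kat5 in the DMSO libraries of the apicidin experiment, whereas Brd2 stood above all others in each of the 12 libraries. Kat2b had a median of 12.8 RPKM (10.6 to 14.5), Crebbp 8.39 (7.29 to 10.4) and Ep300 5.71 (4.79 to 5.89). Ep300 was the lowest in each of the 12 libraries. Division by the coding length instead put Brd3 second, with a median of 44.5, and left Brd2 first and Crebbp and Ep300 last.

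**Figure D1:**
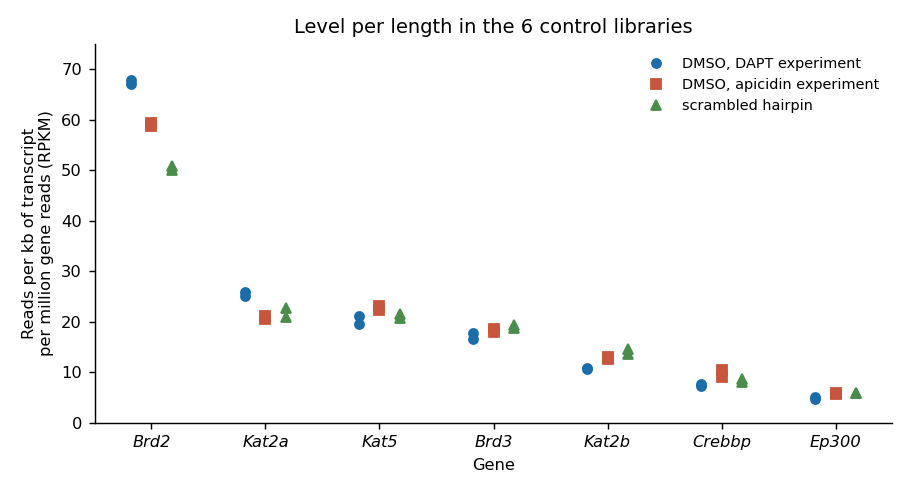
Level per length (RPKM, linear axis) of the 7 genes in the 6 control libraries, with 1 symbol per library and the genes ordered by their median. Brd2 sits between 49.998 and 67.8, above the other genes, and Ep300 between 4.79 and 5.89, below them.

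Across the 3 experiments no 2 of the 7 genes gave the same set of calls, and Kat2a and Kat2b were the only ones of the 7 that passed the test (limma, adjusted p under 0.05 over all genes tested) in every experiment. With DAPT 3 of the 7 rose (Ep300, Crebbp and Kat2b) and 1 fell (Kat2a), while 20.1% of the 12840 genes tested were higher and 23.1% lower, 43.2% in all. With apicidin 1 rose (Brd2) and 4 fell (Kat2b, Crebbp, Kat2a and Kat5), against 18.2% higher, 19.9% lower and 38.1% in all of 12463 genes. With shHdac3 3 rose (Brd2, Brd3 and Kat2a) and 1 fell (Kat2b), against 22.5% higher, 19.4% lower and 41.9% in all of 12482 genes. With 7 genes, 4 calls for DAPT and 4 for shHdac3 are not set apart from these backgrounds. Groups did not overlap for 4, 6 and 4 of the 7 genes with DAPT, apicidin and shHdac3, while 69.9%, 69% and 69.2% of all genes tested had groups that did not overlap. The median log2 fold change of the 7 genes was 0.016 with DAPT, -0.20 with apicidin and 0.044 with shHdac3, and that of all genes tested was 0.0014, 0.0016 and 1.8e-04. The median absolute log2 fold change of the 7 was 0.16, 0.20 and 0.17 in the same order, against 0.17, 0.17 and 0.17 for all genes tested. Of the genes called with shHdac3, 53.8% were higher, or 43.5% with upper-quartile scaling, and the 7 genes again gave 3 and 1. With DAPT 46.6% were higher, or 56.5% with that scaling, and the 7 genes again gave 3 and 1.

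**Figure D2:**
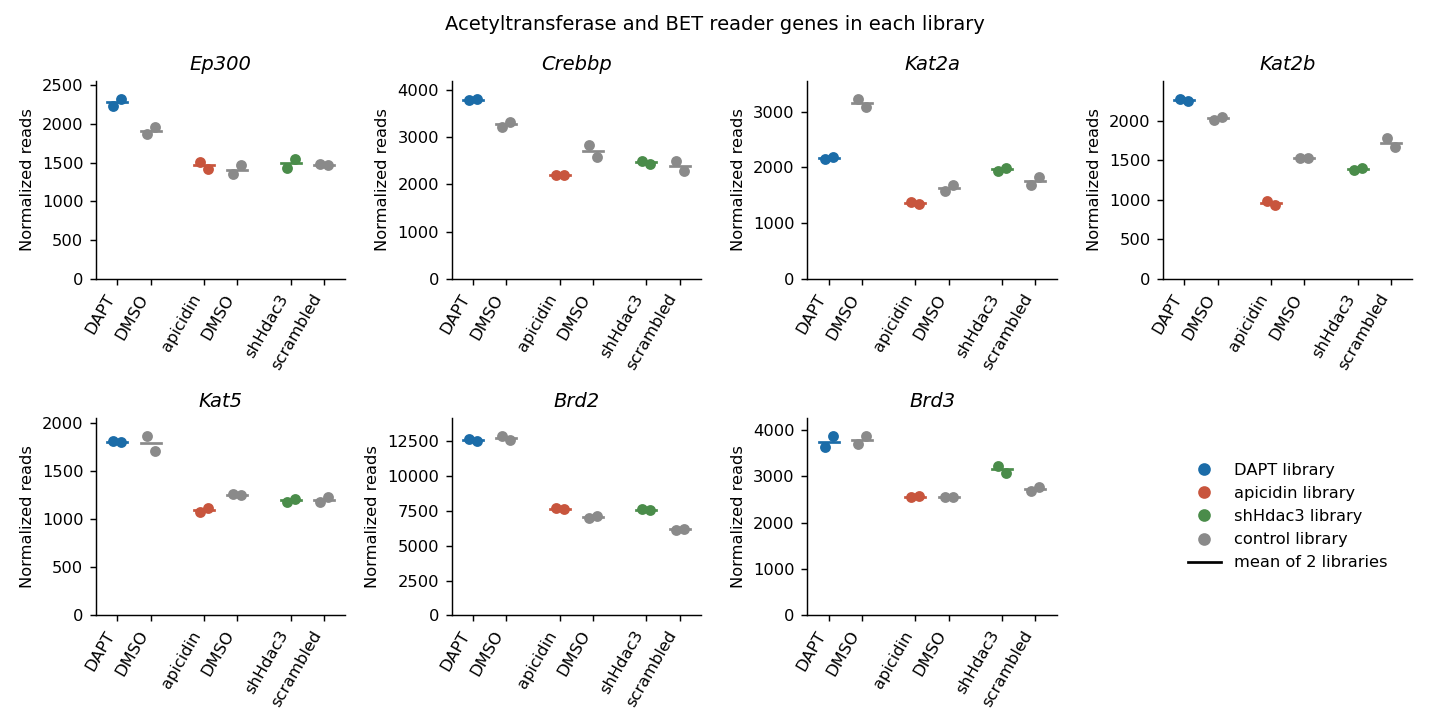
Normalized reads (linear axes from 0) of each gene in each of the 12 libraries, with the treated libraries in colour to the left of their grey controls and a line at the mean of 2 libraries. Each experiment was normalized separately, so heights are to be read within an experiment; the Kat2a libraries treated with DAPT sit at 2149 and 2184, below their controls at 3228 and 3092.

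**Figure D3:**
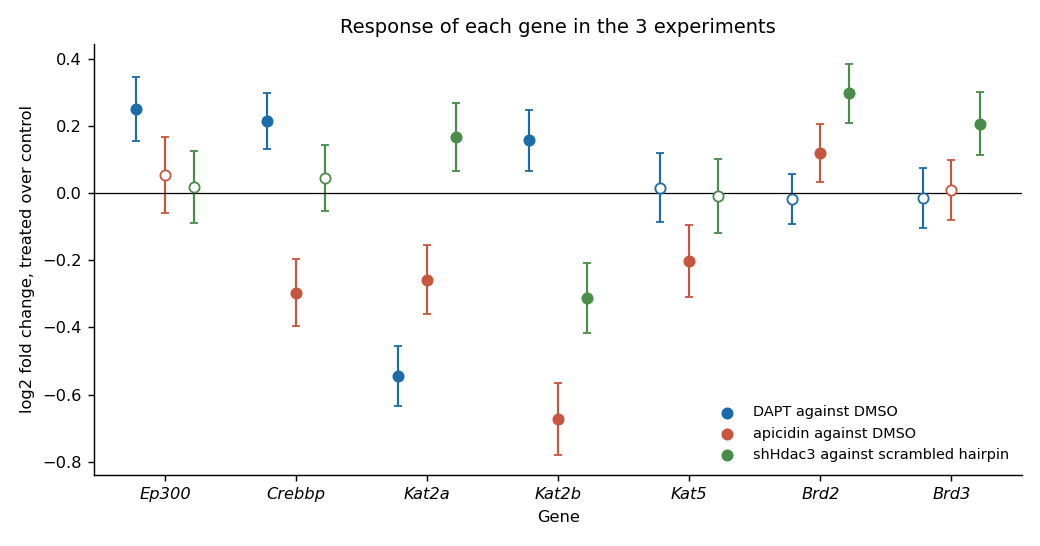
Log2 fold change (treated over control) of each gene in each experiment, with the 95% confidence interval of the limma fit as error bars. Filled symbols passed an adjusted p of 0.05 and open ones did not; Kat2b runs from 0.16 with DAPT to -0.67 with apicidin.

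The CBP/p300 acetyltransferases rose together with DAPT and parted with apicidin. Ep300 had 2234 and 2322 normalized reads in the DAPT libraries and 1871 and 1958 in the DMSO libraries. Both DAPT libraries lay above both controls, a 1.19-fold rise (log2 fold change 0.25 ± 0.05, adjusted p = 1.1e-04). Crebbp had 3784 and 3809 with DAPT and 3223 and 3324 with DMSO. The DAPT libraries were again the higher, by 1.16-fold (0.21 ± 0.04, adjusted p = 1.4e-04). In the apicidin experiment Crebbp had 2195 and 2203 with apicidin and 2826 and 2580.1 with DMSO. Here the apicidin libraries were the lower without overlap, a 1.23-fold fall (-0.30 ± 0.05, adjusted p = 1.1e-04). Ep300 had 1507 and 1422 with apicidin and 1352 and 1469 with DMSO, and the groups overlapped (0.054 ± 0.053, adjusted p = 0.45, 95% interval -0.058 to 0.17). Neither paralogue passed with shHdac3. Ep300 had 1432 and 1552 with shHdac3 and 1478 and 1466 with the scrambled hairpin (0.018, 95% interval -0.088 to 0.12, adjusted p = 0.82; -0.021 with upper-quartile scaling). Crebbp had 2501 and 2428 with shHdac3 and 2498 and 2286 with the scrambled hairpin (0.044, 95% interval -0.054 to 0.14, adjusted p = 0.50), and both paralogues had overlapping groups there.

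Kat2a, which encodes GCN5, showed the largest fall of the 7 genes with DAPT. It had 2149 and 2184 normalized reads in the DAPT libraries and 3228 and 3092 in the DMSO libraries. No DAPT library came near a control, and the level was 1.46-fold lower (log2 fold change -0.54 ± 0.04, adjusted p = 6.2e-10). With apicidin it had 1376 and 1347, against 1580.5 and 1676 with DMSO. The apicidin libraries were the lower without overlap, by 1.196-fold (-0.26 ± 0.05, adjusted p = 5.2e-04). With shHdac3 the direction was the opposite, at 1939.8 and 1991 against 1683 and 1821 with the scrambled hairpin. The shHdac3 libraries were the higher by 1.12-fold (0.17 ± 0.05, adjusted p = 0.0064). That rise did not pass without scrambled replicate 1 (0.11, adjusted p = 0.17), with DESeq2 (adjusted p = 0.10) or in the authors' deposited table (0.16, adjusted p = 0.10).

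Kat2b, which encodes PCAF, fell with apicidin and with shHdac3 and rose with DAPT. It had 980.3 and 935 normalized reads in the apicidin libraries and 1527 and 1526 in the DMSO libraries. The groups were far apart, a 1.59-fold fall and the largest change of any of the 7 genes in any experiment (log2 fold change -0.67 ± 0.05, adjusted p = 1.7e-08). In the hairpin experiment it had 1369 and 1401 with shHdac3 and 1782 and 1660.2 with the scrambled hairpin. Both shHdac3 libraries lay below both controls, by 1.24-fold (-0.31 ± 0.05, adjusted p = 3.0e-06). With DAPT it had 2272 and 2251, against 2012 and 2045 with DMSO. The DAPT libraries were the higher by 1.11-fold (0.16 ± 0.04, adjusted p = 0.0059). The rise did not pass without DAPT replicate 1 (0.15, adjusted p = 0.072) or in the authors' deposited table (0.16, adjusted p = 0.051).

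Kat5, which encodes TIP60, passed the test in the apicidin experiment alone. It had 1071 and 1113 normalized reads with apicidin and 1260.05 and 1253 with DMSO. The apicidin libraries were the lower without overlap, by 1.15-fold (log2 fold change -0.20 ± 0.05, adjusted p = 0.0047). It did not pass when apicidin replicate 1 was left out (adjusted p = 0.058), with DESeq2 (0.066) and in the authors' deposited table (0.083). Kat5 had 1809 and 1802 with DAPT and 1867 and 1707 with DMSO (0.016, 95% interval -0.088 to 0.12, adjusted p = 0.83). It had 1184 and 1205 with shHdac3 and 1177 and 1227 with the scrambled hairpin (-0.0087, 95% interval -0.12 to 0.10, adjusted p = 0.92), and in both of these experiments the groups overlapped. Of the exonic bases of Kat5 in GENCODE M21 (GRCm38), 12.1% overlap opposite-strand exons of Rnaseh2c. Counting that ignored strand would mix reads of both genes there, and its strand setting is not given in the sources. Rnaseh2c, a subunit gene of the RNase H2 enzyme, had 489 and 487 normalized reads with apicidin and 547 and 589 with DMSO (-0.22 ± 0.07, adjusted p = 0.023). It also fell with DAPT (-0.26 ± 0.06, adjusted p = 9.6e-04) and rose with shHdac3 (0.28 ± 0.07, adjusted p = 0.0018), where Kat5 was at 0.016 and -0.0087. Whether shared reads entered the Kat5 values was not tested.

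The BET reader genes did not pass with DAPT and rose with shHdac3. Brd2 had 7618 and 7574 normalized reads with shHdac3 and 6140.4 and 6230.2 with the scrambled hairpin. The shHdac3 libraries were well above both controls, a 1.23-fold rise (log2 fold change 0.30 ± 0.04, adjusted p = 3.1e-07). Brd3 had 3226 and 3077 with shHdac3 and 2689 and 2771 with the scrambled hairpin. Its groups did not overlap either, and the rise was 1.15-fold (0.21 ± 0.05, adjusted p = 2.7e-04). With apicidin Brd2 had 7686 and 7615, against 6966 and 7128 with DMSO. It was 1.09-fold higher (0.12 ± 0.04, adjusted p = 0.029), but did not pass when apicidin replicate 1 (0.17), replicate 2 (0.12) or DMSO replicate 1 (0.099) was left out, or with DESeq2 (0.087), and the authors' deposited table gave 0.12 with an adjusted p of 0.091. Brd3 had 2553 and 2569 with apicidin and 2546 and 2541 with DMSO (0.0097, 95% interval -0.079 to 0.098, adjusted p = 0.88). Its 4 values lie within a narrow band although the groups did not overlap. In the DAPT experiment both BET genes had overlapping groups. Brd2 had 12644 and 12545 with DAPT and 12894 and 12599 with DMSO (-0.017, 95% interval -0.091 to 0.057, adjusted p = 0.73; 0.020 with upper-quartile scaling). Brd3 had 3623 and 3864 with DAPT and 3689 and 3871 with DMSO (-0.015, 95% interval -0.10 to 0.074, adjusted p = 0.82; 0.023 with upper-quartile scaling). Of the exonic bases of Brd2, 9.78% overlap opposite-strand exons of H2-DMa, an antigen-processing gene, and of an unnamed locus. H2-DMa was at most 266 normalized reads in any library. With shHdac3 it had 195 and 172 against 216 and 197 (-0.17 ± 0.12, adjusted p = 0.27). With apicidin H2-DMa rose, at 264 and 266 against 191 and 198 with DMSO (0.45 ± 0.10, adjusted p = 0.0026). The level of the unnamed locus is not given here, and whether shared reads entered the Brd2 values was not tested.

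The responses of a gene to different treatments were compared directly as the difference of its log2 changes in a limma fit of all 12 libraries. Each treatment was a separate experiment with controls of its own. DAPT and apicidin were given for 24 h, whereas the hairpin libraries were taken 96 h after puromycin. Treatment and experiment therefore cannot be told apart in these differences. Of the 7 genes, 5 differed between DAPT and apicidin (35.2% of 12938 genes did), 5 between DAPT and shHdac3 (44.2%) and 6 between apicidin and shHdac3 (33.8%). The largest was that of Kat2b, whose DAPT response exceeded its apicidin response by 0.82 ± 0.07 (adjusted p = 2.0e-09). The DAPT response of Kat2a lay below its shHdac3 response by the difference -0.72 ± 0.07 (adjusted p = 7.4e-09). Crebbp fell with apicidin but not with shHdac3, and the difference of the responses, -0.34 ± 0.07, passed (adjusted p = 5.3e-04). Kat2b fell unequally in the apicidin and shHdac3 experiments, with a difference of -0.36 ± 0.07 (adjusted p = 2.4e-04). In these experiments Kat2a moved in opposite directions, with a difference of -0.42 ± 0.07 (adjusted p = 4.0e-05). For the BET genes the apicidin response was smaller than the shHdac3 response by the differences -0.17 ± 0.05 for Brd2 (adjusted p = 0.011) and -0.19 ± 0.06 for Brd3 (adjusted p = 0.019). The Brd3 difference did not pass without apicidin replicate 1 (adjusted p = 0.054), shHdac3 replicate 1 (0.090) or scrambled replicate 1 (0.071).

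Ratios of paralogues within a library depend on neither its scaling nor its depth. The ratio of Kat2b to Kat2a reads was 1.06 and 1.03 with DAPT, against 0.623 and 0.661 with DMSO. It was 0.712 and 0.694 with apicidin, against 0.966 and 0.910 with DMSO, and 0.706 and 0.704 with shHdac3, against 1.06 and 0.912 in scrambled libraries. The balance thus moved toward Kat2b with DAPT (log2 change of the ratio 0.70) and toward Kat2a with apicidin (-0.42) and shHdac3 (-0.48), and in no experiment did the groups overlap. The ratio of Ep300 to Crebbp was 0.686 and 0.645 with apicidin, against 0.478 and 0.569 with DMSO (0.35). It was 0.590 and 0.610 with DAPT, against 0.581 and 0.589 with DMSO (0.037), and 0.572 and 0.639 with shHdac3, against 0.592 and 0.641 in scrambled libraries (-0.026). With DAPT the groups were apart by a narrow margin, and with shHdac3 they overlapped. Brd3 to Brd2 was 0.287 and 0.308 with DAPT against 0.286 and 0.307 with DMSO (0.0027), 0.332 and 0.337 with apicidin against 0.366 and 0.357 with DMSO (-0.11), and 0.424 and 0.406 with shHdac3 against 0.438 and 0.445 in scrambled libraries (-0.090). An exact permutation test of 2 against 2 libraries cannot give a two-sided p below 0.33, so these ratios carry no test.

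**Figure D4:**
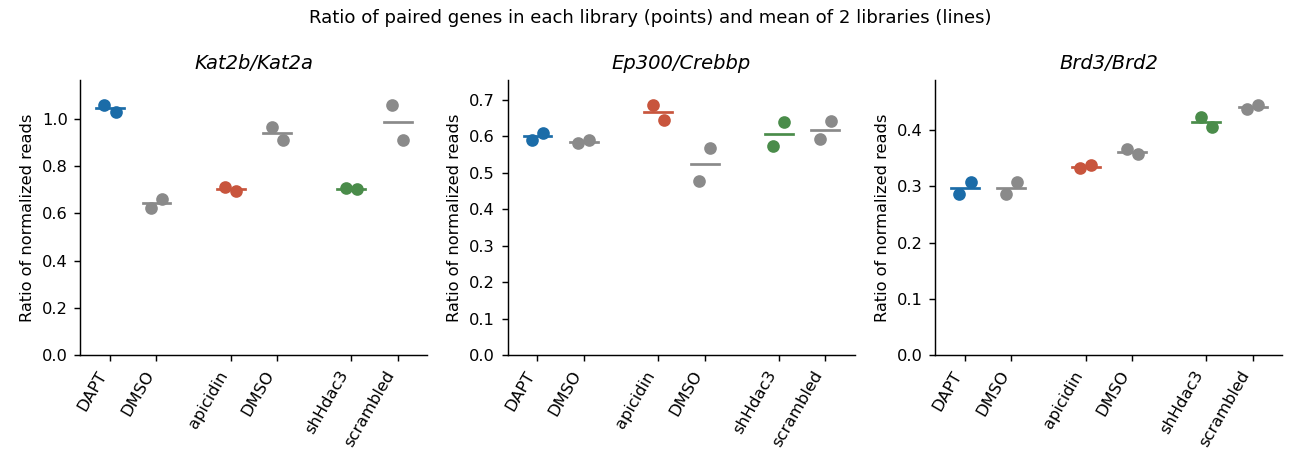
Ratio of normalized reads of Kat2b to Kat2a, Ep300 to Crebbp and Brd3 to Brd2 in each of the 12 libraries (points, linear axes from 0), with treated libraries in colour to the left of their grey controls and lines at the mean of 2. The Kat2b to Kat2a ratio is 1.06 and 1.03 with DAPT against 0.623 and 0.661 with DMSO, and lower than the controls with apicidin and shHdac3.

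Partner genes of these enzymes and readers were counted in 7 lists, which share Trrap and Brd8 between lists and hold none of the 7 genes. With DAPT, against 20.1% higher and 23.1% lower of all genes tested, the counts of the SAGA, ATAC and NuA4 lists are not set apart from the background in the number called. Of 23 SAGA and ATAC subunits, 1 rose and 9 fell (median log2 fold change -0.036), among them the adaptor gene Tada2a (-0.33 ± 0.06), Wdr5 (-0.30 ± 0.04) and Taf10 (-0.21 ± 0.04). The authors' deposited table gave 0 and 6 for this list. Of 17 NuA4 subunits, 2 rose and 5 fell (median -0.011), with the paired ATPase genes Ruvbl2 (-0.61 ± 0.04) and Ruvbl1 (-0.45 ± 0.04) falling most and the scaffold genes Epc1 (0.29 ± 0.05) and Epc2 (0.24 ± 0.05) rising. Of the other bromodomain genes, 12 rose and 1 fell of 26 (median 0.079), or 6 and 1 without DAPT replicate 2. Trim24 (0.43 ± 0.04), Brpf3 (0.42 ± 0.06) and Baz2b (0.36 ± 0.05) rose most, and Brd7, of a SWI/SNF complex, fell (-0.29 ± 0.04). Of 9 CBP/p300 partners tested, 4 rose and 1 fell (median 0.14), or 1 and 1 without DAPT replicate 2. The Mastermind gene Maml2, with 69 and 91 reads with DAPT against 47 and 41 with DMSO, rose (0.83 ± 0.20) and Carm1, an arginine methyltransferase gene, fell (-0.46 ± 0.06). Of 9 other histone acetyltransferases, 3 rose and 2 fell (median 0.046), or 1 and 2 without DAPT replicate 2 and with DESeq2, with Hat1, which acetylates newly made histone H4, at -0.37 ± 0.04. In the acetyl-CoA list 2 of 8 rose and 3 fell (median -0.050), with the mitochondrial acetyl-CoA synthetase gene Acss1 at 0.82 ± 0.07.

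With apicidin 18.2% of all genes tested were higher and 19.9% lower, and the NuA4 list had 1 rise and 8 falls of 17 (median -0.12). The scaffold genes Epc1 (-0.78 ± 0.06) and Epc2 (-0.40 ± 0.07), which rose with DAPT, fell here, as did Meaf6 (-0.47 ± 0.11), while Mbtd1 rose (0.30 ± 0.05). Of 23 SAGA and ATAC subunits 2 rose and 6 fell (median -0.092), or 1 and 3 without apicidin replicate 1. DESeq2 gave 2 and 2 for this list, as did the authors' deposited table. Its named genes include Atxn7 of the SAGA deubiquitinase module at -0.38 ± 0.07 and Dr1 at 0.39 ± 0.06. Other bromodomain genes had 5 rises and 10 falls of 26 (median -0.056), with Brpf3 at -0.54 ± 0.07 and the SWI/SNF ATPase gene Smarca2 at 0.85 ± 0.16, on 114 and 132 reads with apicidin against 60 and 76 with DMSO. All 3 called genes of the acetyl-CoA list fell (median of 8 genes -0.12). They were the carnitine acetyltransferase gene Crat (-0.63 ± 0.07), the cytosolic acetyl-CoA synthetase gene Acss2 (-0.33 ± 0.05) and the mitochondrial citrate carrier gene Slc25a1 (-0.24 ± 0.05). In the P-TEFb and 7SK list 2 rose and 2 fell of 9 (median 0.045), with the elongation scaffold gene Aff4 at 0.58 ± 0.04 and Larp7, which binds the 7SK RNA, at -0.38 ± 0.05. Of 9 CBP/p300 partners 2 rose and 1 fell (median 0.069), and of 9 other acetyltransferases 2 rose and 1 fell (median -0.043), with Kat6b at -0.39 ± 0.06.

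With shHdac3 22.5% of all genes tested were higher and 19.4% lower, so that rises outnumbered falls over all genes too. Of 23 SAGA and ATAC subunits 9 rose and 2 fell (median 0.12), with Wdr5 (0.27 ± 0.05) and Dr1 (0.26 ± 0.06) rising and Taf10 (-0.40 ± 0.06) falling. DESeq2 gave 4 and 2 for this list, as did the authors' deposited table. Of 17 NuA4 subunits 5 rose and 0 fell (median 0.095), or 3 and 0 without scrambled replicate 1 and with upper-quartile scaling. DESeq2 gave 1 and 0, as did the authors' deposited table. Yeats4, a reader of acylated histones, was at 0.22 ± 0.06 and did not pass with DESeq2 (adjusted p = 0.052) or in the authors' deposited table (0.058). In the P-TEFb and 7SK list 5 rose and 2 fell of 9 (median 0.14), or 2 and 1 without shHdac3 replicate 1 and with DESeq2. Among other bromodomain genes 9 of 26 rose and 5 fell (median 8.9e-05), or 7 and 7 with upper-quartile scaling and 7 and 2 with DESeq2. Atad2 (0.39 ± 0.05), Brpf1 (0.33 ± 0.05) and Baz1b (0.31 ± 0.05) rose and Trim24 fell (-0.27 ± 0.05). Of 9 other acetyltransferases 3 rose and 2 fell (median 0.091), the falls being the coactivator gene Ncoa1 (-0.50 ± 0.07) and Kat6b (-0.40 ± 0.07). Of 9 CBP/p300 partners 2 rose and 2 fell (median -0.046). Creb1, which encodes the factor that CBP is named for, rose (0.31 ± 0.05), and Cited2, whose product competes for binding to CBP and p300, fell (-0.67 ± 0.11). In the acetyl-CoA list 2 of 8 rose and 2 fell (median -0.030), or 0 and 2 without shHdac3 replicate 1, with Acss2 (-0.45 ± 0.06) and Slc25a1 (-0.34 ± 0.05) lower.

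**Figure D5:**
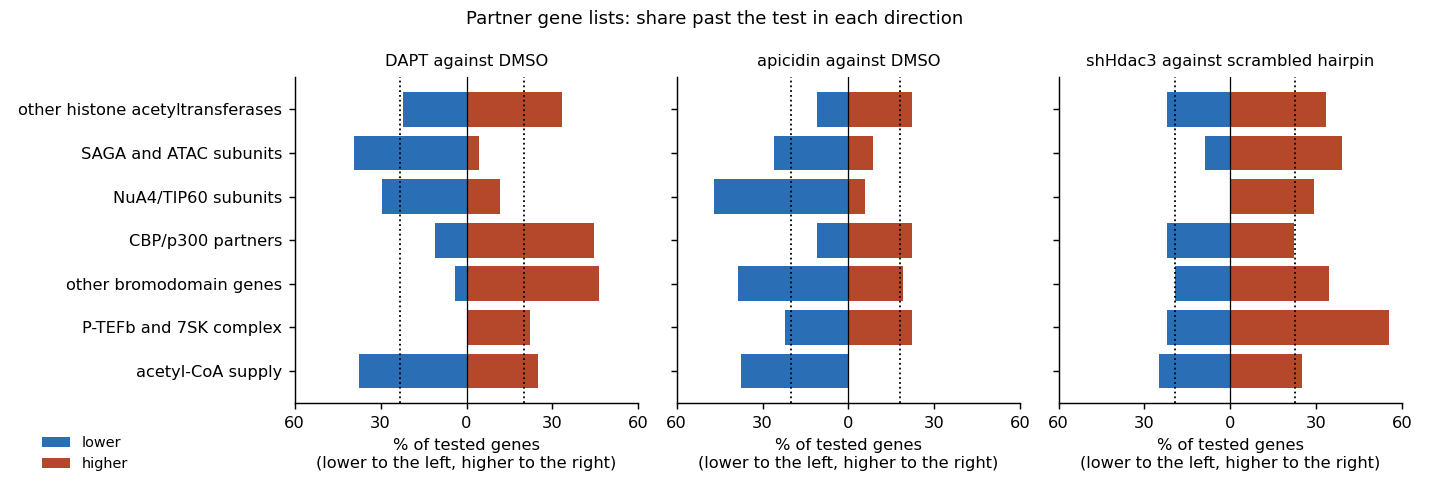
Share of the tested genes of each partner list that was lower (blue, to the left) or higher (red, to the right) at an adjusted p under 0.05 in each experiment, in percent. Dotted lines mark the share of all genes tested in the same direction; 12 of 26 other bromodomain genes were higher with DAPT and 8 of 17 NuA4 subunits lower with apicidin.

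The 3 log2 fold changes of each gene were compared with those of 9700 other genes by Euclidean distance, as a measure of likeness over 3 comparisons. Nearest to Kat2a was Npm1, the nucleolar chaperone gene, at -0.56 with DAPT, -0.25 with apicidin and 0.19 with shHdac3 (distance 0.033). The call pattern of Kat2a (lower, lower, higher) was shared by 237 of 12204 genes tested in all 3 experiments, or 1.94%. Nearest to Kat2b were Acot4, an acyl-CoA thioesterase gene (0.15, -0.71 and -0.31; distance 0.041), and Evpl (0.12, -0.65 and -0.26). Only 3 genes lay within 0.1 of Kat2b, against 12 for Kat2a, 27 for Crebbp, 78 for Ep300, 122 for Brd2, 164 for Kat5 and 244 for Brd3, and genes with small changes have more neighbours by construction. Nearest to Crebbp was Smarcc2, a SWI/SNF subunit gene (0.25, -0.28 and 0.060), and nearest to Brd3 was Stag2, a cohesin subunit gene (-0.0031, 0.0092 and 0.21). The other nearest genes were Fcho1 for Ep300, Eogt for Kat5 and Tmem248 for Brd2.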

How the data were processed

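Strand-marking total RNA libraries were sequenced from 12 Beko samples, per the labels' protocols. The submitters' processing notes name mm9, FastQC, Bowtie2, TopHat and DESeq2, with no versions or roles; the sources used here name neither the counter nor its annotation. The deposited signal values are whole reads per gene divided by 1 size factor per library, as 100% of them are whole multiples of the library's smallest value (tolerance 1e-06), and each of the 3 tables was normalized on its own. The tables also hold a deposited log2 fold change and a deposited p-value and adjusted p-value for each gene, used here only where named.

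Each treatment was tested against its own 2 controls with limma 3.58.1 (R 4.3.3, intensity trend, two-sided) on log2(value + 1) for genes with 10 or more in at least 2 of 4 libraries, with Benjamini-Hochberg adjustment over all genes tested at 0.05; fold changes are on that scale, with SE. Every adjusted p without another name is from limma. Reads were recovered from the steps for edgeR 4.0.16 and DESeq2 1.42.0, for RPKM, and for a 12-library limma fit of differences (median-ratio scaling). Transcript lengths and overlaps came from GENCODE M21 (GRCm38), which is not the authors' build, so coordinates were never joined to theirs. Paralogues with similar stretches could share reads, which was not tested. Scripts were tested on simulated reads. The 7 genes and the 7 partner lists, which were compiled from general knowledge, were chosen with earlier results of these data known. From each list the text takes up to 3 called genes per direction with a mean of 50 or more, by size of change, and not all are named. For the 7 genes 2 libraries per group limit the precision; partner genes with few reads also carry sizeable counting error.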

Additional observations from a re-analysis of the deposited data

Results flagged for a closer look

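The log2 changes of the same gene in 2 experiments differed in 16 of 21 tests (12-library limma fit, adjusted over all genes). Of all 12938 genes, 35.2% passed for DAPT minus apicidin, 44.2% for DAPT minus shHdac3 and 33.8% for apicidin minus shHdac3. The 3 differences of a gene are not independent, as each follows from the other 2. Treatment and experiment cannot be told apart in them. All 3 differences passed for Kat2a, Kat2b and Brd2. For Kat2b they were 0.82 (DAPT minus apicidin), 0.46 (DAPT minus shHdac3, adjusted p = 4.9e-06) and -0.36 (apicidin minus shHdac3). For Kat2a they were -0.30 (adjusted p = 0.0012), -0.72 and -0.42 in the same order. For Brd2 they were -0.15 (adjusted p = 0.028), -0.32 (adjusted p = 1.8e-05) and -0.17, and the first did not pass when any of 6 of the 8 libraries was left out (adjusted p up to 0.088) or with upper-quartile scaling (0.064).

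Crebbp differed between DAPT and apicidin by 0.50 (adjusted p = 4.3e-06) and between apicidin and shHdac3 by -0.34. Its DAPT and shHdac3 responses differed by 0.16 (adjusted p = 0.057), which passed with TMM factors (0.032), upper-quartile factors (0.0094), edgeR (0.019), the replicate block (0.045) and without scrambled replicate 2 (0.015). Ep300 differed between DAPT and apicidin by 0.18 (adjusted p = 0.058), which passed with upper-quartile factors (0.036) and edgeR (0.026) and without any of 3 libraries (down to 0.022). It differed between DAPT and shHdac3 by 0.23 (adjusted p = 0.017), a call lost without DAPT replicate 2 (0.079), DMSO replicate 1 of the DAPT experiment (0.077) or shHdac3 replicate 1 (0.10). Brd3 differed by -0.23 between DAPT and shHdac3 (adjusted p = 0.0043) and by -0.19 between apicidin and shHdac3. Kat5 differed by 0.21 between DAPT and apicidin (adjusted p = 0.026) and by -0.19 between apicidin and shHdac3 (adjusted p = 0.043). The Kat5 differences were lost without 5 and 6 of the 8 libraries in turn (adjusted p up to 0.15 in each), and the second also with TMM factors (0.069), upper-quartile factors (0.092) and edgeR (0.070).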

How the results depend on the processing

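Wherever a call of the 7 genes passed under any alternative, its direction was that reported. With apicidin 5 of the 7 passed, 3 with DESeq2, and 3 to 5 when 1 library was left out. The authors' deposited table also gave 3. DESeq2 called 2663 genes with apicidin and 3116 with shHdac3, while 2465 and 2961 passed in the authors' deposited table. Differences between DAPT and apicidin passed for 3 to 5 genes with 1 library left out, the 3 being without DAPT replicate 1 or replicate 2. The direction of genes that did not pass was not fixed. With upper-quartile factors Brd2 and Brd3 were at 0.020 and 0.023 with DAPT and Ep300 at -0.021 with shHdac3; the cause was not tested. With 1 library left out, Brd3 spanned -0.061 to 0.032 and Kat5 -0.048 to 0.081 with DAPT, Ep300 -0.0054 to 0.11 with apicidin, and Ep300 -0.040 to 0.077, Crebbp -0.019 to 0.11 and Kat5 -0.039 to 0.021 with shHdac3. The differences for Brd3 (DAPT minus apicidin, -0.084 to 0.013), Kat5 (DAPT minus shHdac3, -0.041 to 0.077) and Ep300 (apicidin minus shHdac3, -0.018 to 0.099) also changed sign, as did the log2 ratio changes of Brd3 to Brd2 with DAPT (-0.049 to 0.055) and Ep300 to Crebbp with shHdac3 (-0.11 to 0.054). A lone library left in a group is assumed to vary like the others. The labels give no source for shared replicate numbers, and deviations of same-numbered libraries correlated at 0.019, 0.039 and 0.011 for DAPT, apicidin and shHdac3. The replicate block called 5978, 4811 and 5327 genes, in place of 5546, 4746 and 5228, and left the counts of the 7 genes at 4, 5 and 4, with differences passing for 5, 6 and 6 of them; among the lists, it changed the P-TEFb and 7SK count with DAPT to 3 higher and 1 lower. The ratios without 1 library were added after the data were seen.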

Other observations

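The control groups were not compared by a test. The Kat2b to Kat2a ratio was lower in the DMSO libraries of the DAPT experiment than in the other control groups, which overlapped each other. It was 0.623 and 0.661 in the DMSO libraries of the DAPT experiment, 0.966 and 0.910 in the DMSO libraries of the apicidin experiment and 1.06 and 0.912 in the scrambled libraries. The Brd3 to Brd2 ratio was 0.286 and 0.307, 0.366 and 0.357, and 0.438 and 0.445 in the same order, with no overlap between the 3 control groups. Experiment and control group cannot be told apart here.

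In the P-TEFb and 7SK list with DAPT, 2 of 9 genes rose and 0 fell (median log2 fold change 0.061). Of all genes tested, 20.1% were higher and 23.1% lower, so the count is not set apart from the background. Upper-quartile scaling gave 4 and 0 for the list, and the authors' deposited table gave 1 and 0. Aff4 and Mepce were the genes that rose.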
